A study of Gallus gallus with 28 samples.

Results

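The genes described here encode the machinery of DNA replication and mitosis, chosen by symbol: MCM, ORC, GINS, CDC, CDK, CENP, KIF, BUB, AURK, PLK and E2F genes, replicative polymerases and clamp loaders, A, B, D and E cyclins, and TOP2A, PCNA, RRM1 and RRM2. Of 13009 named genes on the array 159 matched, and each is given by 1 probe set, the one whose mean over the arrays was highest. The study profiled total RNA of chicken intestine, from male embryos and hatched males, with 28 Affymetrix arrays, 4 at each of 7 ages. The ages were embryonic days 18 and 20 (e18 and e20), the day of hatch, and 1, 3, 7 and 14 days after hatch (d1, d3, d7 and d14). The birds came from lines A and B and the RNA from segments of 6 males per age, but line, pool and bird are not assigned to arrays. The p-values therefore reflect array-to-array spread alone, part of which may be technical. The labels call the tissue whole intestine and the design text small intestine. The labels give no treatment, and age is the only factor they assign to the arrays.

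A cell that divides first loads MCM helicases onto origins marked by the origin recognition complex, then copies its DNA with polymerases held on the PCNA clamp, and finally separates the chromosomes with kinetochores and spindle motors. Cyclins and cyclin-dependent kinases (CDKs) order these steps, and E2F factors switch on many of the genes. In the mature intestine dividing epithelial cells sit mainly in the crypts, while mature enterocytes on the villi have left the cell cycle. These transcripts are therefore widely used as a readout of how much of a tissue is dividing. Where the dividing cells sat at the ages profiled here was not measured.

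Values are log2 intensities of the deposited array summaries, with array medians of 7.39 to 8.00 on the linear intensity scale. A gene was tested when its log2 value exceeded 4 in at least 4 arrays, which held for 134 of the 159 genes and for 8396 genes in all. The 25 genes under this limit were CCNA1, CDC20B, CDC42EP2, CDK12, CDK15, CDK18, CDK3, CDK5RAP2, E2F3, KIF12, KIF13B, KIF1A, KIF20AL, KIF21B, KIF24, KIF26A, KIF27, KIF2B, KIF3A, KIF3B, KIF6, KIF9, KIFC1, MCM10 and ORC5. A symbol prefix is a loose guide to function. By the roles assigned here 94 of the tested genes act in replication, cell cycle control or mitosis. The other 40 were grouped as sharing only a prefix, such as transport kinesins, effectors of the GTPase CDC42 and CDKs of transcription. Some of the 40 may have cell cycle roles too. Roles were assigned with earlier results of these data known, so contrasts between these groups depend on the sorting. The labelled tissue had high enterocyte markers from e20 on, and the e18 arrays also held high exocrine pancreas transcripts, with a mean of 10.97 ± 0.07 over 6 markers (log2, SD, n = 4 arrays), against 3.54 ± 0.60 at e20. Whether that tissue contributed replication transcripts at e18 was not tested, so values against e20 are given beside those against e18.

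The 94 replication and mitosis genes were highest before hatch and lowest at d7 and d14. Their mean log2 intensity was 7.67 ± 0.05 at e18, 7.54 ± 0.10 at e20, 7.24 ± 0.03 at hatch, 6.82 ± 0.08 at d1, 7.05 ± 0.03 at d3, 6.64 ± 0.18 at d7 and 6.55 ± 0.12 at d14 (SD over 4 arrays). The course was not smooth. The d1 arrays, at 6.71 to 6.88, all lay below the hatch arrays, at 7.21 to 7.29, and the d3 arrays, at 7.02 to 7.08, all lay above the d1 arrays. The 40 genes that share only a prefix had means of 7.20 ± 0.06 at e18 and 6.88 ± 0.04 at d14. The mean of all tested genes was between 7.37 and 7.48 in every array.

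**Figure D1:**
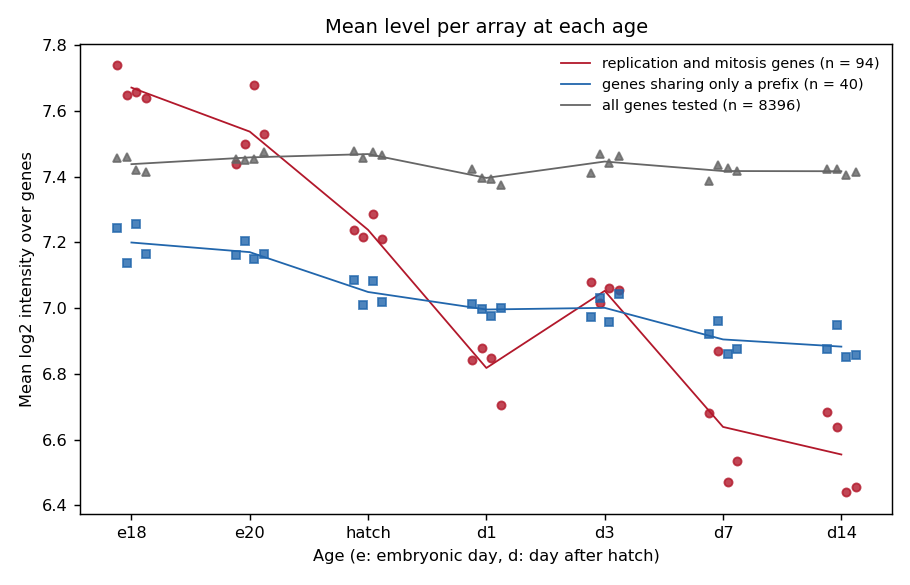
Mean log2 intensity per array (points) and per age (lines) over 94 replication and mitosis genes, 40 genes that share only a symbol prefix and all 8396 genes tested, with age on the x axis and 4 arrays per age. The replication and mitosis genes stand between 7.64 and 7.74 at e18 and between 6.44 and 6.68 at d14, with a low at d1 and a partial recovery at d3.

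Limma's moderated F-test over the 7 ages called 124 of the 134 genes, where 90.1% of all tested genes were called. Of the 94 replication and mitosis genes 89 were called, and 51 had their highest mean at e18 and 28 at e20, while 53 had their lowest at d14, 13 at d7 and 14 at d1. Over all tested genes 32.4% peaked at e18 and 16.4% at e20, and 23.5% were lowest at d14, 7.68% at d7 and 14.6% at d1. The share of the 94 genes that was lowest at d1, 14.9%, was thus near that of all genes. As a description across the 28 arrays, which share their ages, 58 of the 94 genes had a correlation above 0.8 with the mean of the others. Their median was 0.87, against 6 of the 40 prefix-only genes above 0.8 and a median of 0.27. A correlation below 0 was found for 12 of the 94 and 15 of the 40. The share of all tested genes above 0.8 was not counted.

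Between e18 and d14 most replication and mitosis genes fell. Of the 94 genes 75 fell and 7 rose, with a median log2 difference (d14 minus e18) of −1.29. Of the 40 prefix-only genes 15 fell and 11 rose, with a median of −0.01. Over all tested genes 73.7% were called, 40.5% lower and 33.2% higher, with a median of −0.07. Against e20, a comparison that shares the d14 arrays, 76 of the 94 genes fell and 6 rose with a median of −1.06, where 40.4% of all genes were lower, 27.2% higher and 67.6% called in all. In bulk tissue fewer dividing cells and less RNA per dividing cell cannot be told apart.

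**Figure D2:**
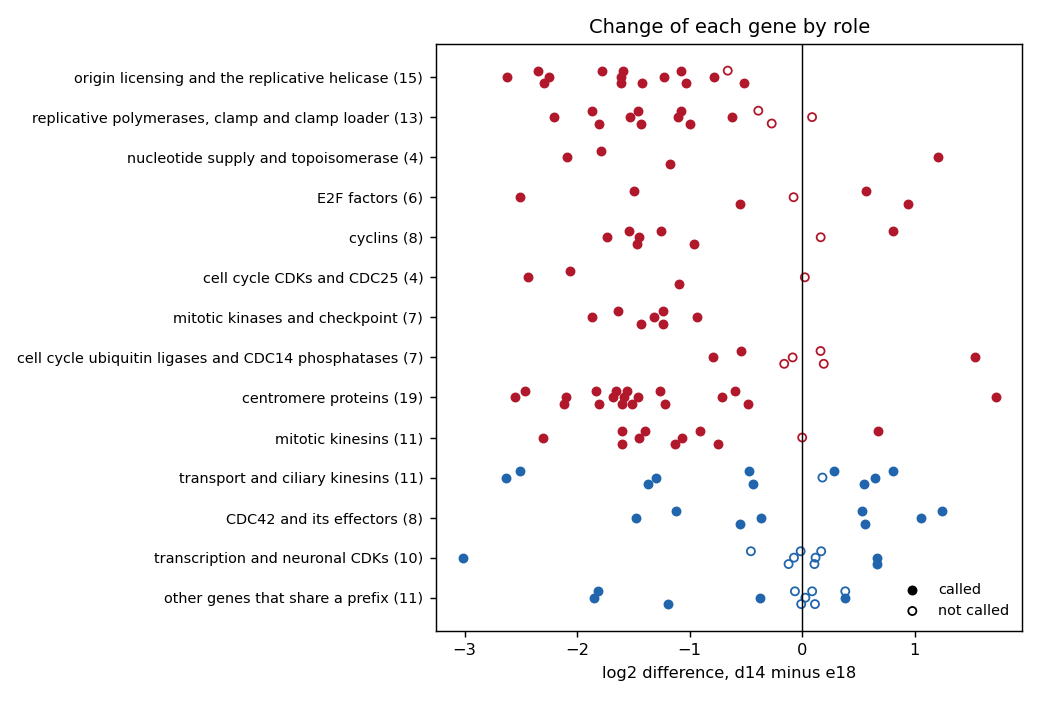
Log2 difference of each tested gene between d14 and e18, arranged by assigned role, with called genes filled and others open. Red marks the 94 replication and mitosis genes, of which 75 fell and 7 rose, and blue the 40 prefix-only genes, of which 15 fell and 11 rose.

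Every licensing and helicase gene that was called between e18 and d14 fell, 14 of 15. Over all tested genes 40.5% were lower and 33.2% higher. MCM2 (gene ID 416027), a subunit of the replicative helicase ring, had 7.05, 6.81, 6.61 and 6.52 at d14, against 9.53, 9.33, 9.43 and 9.19 at e18. All d14 arrays were below all e18 arrays, and the gene changed by −2.62 ± 0.17 (log2 difference ± SE, adjusted p = 7.94e-13), or by −2.42 ± 0.17 against e20. MCM5, another ring subunit, had 6.96, 6.97, 6.31 and 6.62 at d14, against 9.33, 9.18, 8.81 and 8.93 at e18, again without overlap (difference −2.35 ± 0.21). MCM6 had 8.04, 8.13, 7.83 and 7.68 at d14, against 10.32, 10.04, 10.19 and 10.14 at e18. It changed by −2.25 ± 0.14 against e18 but by only −1.08 ± 0.14 against e20. MCM3 was at or below background at d14 and was at least 4.53-fold lower there than at e18 (adjusted p = 1.56e-09).

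The genes that load and fire the helicase followed. CDC45, part of the active helicase, averaged 6.98 ± 0.37 at d14 and 8.75 ± 0.02 at e18, a difference of −1.78 ± 0.17. GINS1 and GINS3, subunits of its partner complex, changed by −1.42 ± 0.19 and −1.59 ± 0.11, and CDC7, the kinase that fires origins, by −1.61 ± 0.16. Among the subunits of the origin recognition complex ORC4 changed by −1.61 ± 0.16, ORC2 by −1.23 ± 0.17, ORC1 by −1.08 ± 0.16, ORC6 by −1.03 ± 0.20 and ORC3 by −0.52 ± 0.16. MCM8, which acts in recombination repair rather than in the replication ring, changed by −0.78 ± 0.11, and its partner MCM9 had a difference of −0.66 ± 0.54 and was not called. MCM9 had 4.15, 4.14, 5.56 and 5.19 at d14, against 4.67, 4.40, 6.32 and 6.31 at e18. Arrays 1 and 2 were below arrays 3 and 4 at both ages, an order that the fit does not model. Within arrays 1 and 2, and within arrays 3 and 4, the d14 values were the lower ones. The labels do not match arrays between ages, so no fall is drawn from this order.

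Polymerase and clamp genes fell in 10 of 13 cases and rose in 0, where 40.5% of all tested genes were lower and 33.2% higher. PCNA (the sliding clamp) had 10.68, 10.29, 9.97 and 10.09 at d14, against 12.53, 12.52, 12.37 and 12.40 at e18. The groups did not overlap, and the gene changed by −2.20 ± 0.18 (adjusted p = 8.26e-11), or by −1.04 ± 0.18 against e20. POLA1, the catalytic subunit of the polymerase that starts each strand, changed by −1.81 ± 0.21. RFC2, RFC5, RFC1 and RFC4, subunits of the clamp loader, changed by −1.86 ± 0.18, −1.53 ± 0.14, −1.43 ± 0.15 and −1.11 ± 0.14. Of 2 other RFC1 probe sets over the limit 1 was called lower too, and the 2 differed by −0.51 and −0.16. RFC3, a further subunit, had means of 4.81 ± 0.21 at d14 and 4.72 ± 0.49 at e18 and was not called. Against e20 RFC3 fell by 0.47 ± 0.17. POLD2 and POLE4 were not called against e18 either (differences −0.39 ± 0.18 and −0.27 ± 0.14) and were lower than at e20. Against e20 all 13 genes of this group fell, where 40.4% of all tested genes were lower and 27.2% higher.

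The genes of deoxynucleotide supply moved in opposite directions. RRM1 and RRM2 encode the large and small subunits of ribonucleotide reductase, which makes the building blocks of DNA. RRM2 had 9.25, 8.94, 7.92 and 8.17 at d14, against 10.35, 10.51, 10.25 and 10.34 at e18, and fell by 1.79 ± 0.24. The d14 arrays of this gene spread over more than a log2 unit but stayed below those of e18. RRM1 fell by 2.09 ± 0.16 (adjusted p = 1.97e-11). RRM2B, an alternative small subunit that p53 induces and that serves repair and mitochondrial DNA in cells that do not divide, had 8.01, 8.00, 7.76 and 7.70 at d14, against 6.89, 7.11, 6.39 and 6.27 at e18. It rose by 1.20 ± 0.23 (adjusted p = 4.39e-05), with no overlap between the ages. TOP2A, which untangles replicated chromosomes, fell by 1.17 ± 0.19.

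The 6 E2F factors did not move together between e18 and d14. Of these 3 fell and 2 rose, where 40.5% of all tested genes were lower and 33.2% higher. E2F7 and E2F8, repressors whose own genes are activated late in G1, fell. E2F7 had 3.97, 3.76, 2.76 and 3.52 at d14, against 6.52, 5.67, 5.83 and 6.01 at e18, a difference of −2.51 ± 0.26. Its value on d14 array 3 lay below the background of 3.16 there, so weak signal may limit the size of this fall. E2F8 changed by −1.49 ± 0.20. E2F1, an activator, changed by −0.56 ± 0.13. E2F5 and E2F4, which act with the RB family in resting cells, rose by 0.56 ± 0.13 and 0.94 ± 0.12 against e18. Another probe set of E2F5 differed by 0.15 and was not called. For E2F4 the sign turned against e20 (difference −0.28 ± 0.12). E2F6, a repressor that acts without the RB family, had a difference of −0.08 ± 0.11 from e18 and was not called. Against e20 all 6 factors were called, where 67.6% of all tested genes were. E2F5 and E2F6 were the 2 that rose, and the other 4 fell.

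Most cyclins fell between e18 and d14, 6 of 8, and 1 rose, where 40.5% of all tested genes were lower and 33.2% higher. CCNB1, the partner of CDK1 at entry into mitosis, averaged 9.97 ± 0.22 at d14 and 11.70 ± 0.05 at e18, a difference of −1.73 ± 0.12. CCNA2 changed by −1.54 ± 0.11 and CCNB3 by −1.25 ± 0.12. The D cyclins, which link growth signals to the cycle, did not move together. CCND1 had 9.77, 9.72, 9.38 and 9.52 at d14, against 10.82, 10.84, 11.31 and 11.21 at e18, and fell by 1.45 ± 0.12, all d14 arrays being the lower ones. CCND2 changed by −0.97 ± 0.15, though by only −0.47 ± 0.15 against e20, where another choice of probe set turned the sign. CCND3 had 7.39, 7.28, 7.47 and 7.13 at d14, against 6.77, 6.57, 6.27 and 6.44 at e18. All d14 arrays of CCND3 were above all e18 arrays, and it rose by 0.80 ± 0.12 (adjusted p = 1.27e-06). Of the E cyclins, which start replication, CCNE2 fell by 1.46 ± 0.11, while CCNE1 stood close to the lower limit of testing at both ages (difference 0.16 ± 0.13, not called). CCNE2 read 3.15 to 3.17 at d14, where background was 3.13 to 3.18, so the size of its fall is limited by weak signal.

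CDK1, the kinase that drives mitosis, had 10.55, 10.33, 10.24 and 10.36 at d14, against 11.44, 11.54, 11.47 and 11.41 at e18, and fell by 1.10 ± 0.10. The ages did not overlap. CDK6, a partner of D cyclins, changed by −2.44 ± 0.20 against e18 and by −0.70 ± 0.20 against e20. CDC25A, the phosphatase that activates CDKs, fell by 2.06 ± 0.23. CDK7, which phosphorylates other CDKs and also acts in transcription, had means of 6.82 ± 0.06 at d14 and 6.80 ± 0.40 at e18 and was not called.

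All 7 mitotic kinase and checkpoint genes fell between e18 and d14, where 40.5% of all tested genes were lower and 33.2% higher. CDC20, the mitotic activator of the anaphase promoting complex, changed by −1.87 ± 0.22 (adjusted p = 2.99e-08). PLK1, a kinase of mitotic entry and spindle assembly, averaged 8.58 ± 0.20 at d14 and 10.01 ± 0.15 at e18 (difference −1.43 ± 0.13), and AURKB, which corrects chromosome attachment, 8.51 ± 0.33 at d14 and 9.74 ± 0.08 at e18 (difference −1.24 ± 0.15). PLK4, the kinase of centriole duplication, changed by −1.63 ± 0.16, and the spindle checkpoint genes BUB1, BUB1B and BUB3 by −1.32 ± 0.11, −1.24 ± 0.13 and −0.94 ± 0.09. The subunits of the anaphase promoting complex changed less. CDC23 and CDC16 changed by −0.79 and −0.55, and CDC27 and CDC26 were not called (differences −0.16 ± 0.08 and −0.09 ± 0.11), nor was the ubiquitin-conjugating enzyme CDC34 (0.16 ± 0.08). CDC14A, a phosphatase whose yeast counterpart ends mitosis, had 6.03, 6.38, 6.46 and 5.70 at d14, against 3.99, 4.18, 4.82 and 5.45 at e18. The lowest d14 array was just above the highest e18 array. It rose by 1.53 ± 0.36 (adjusted p = 0.000436), while its relative CDC14B differed by 0.19 ± 0.18 from e18, not called, and by 1.54 ± 0.18 from e20.

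All 19 genes with a CENP symbol were called between e18 and d14, 18 lower and 1 higher. Over all tested genes 73.7% were called, 40.5% lower and 33.2% higher. CENPK, a kinetochore subunit, had 8.03, 7.74, 7.17 and 7.45 at d14, against 10.03, 10.26, 10.04 and 10.28 at e18, and fell by 2.55 ± 0.17. Its d14 arrays were all below those of e18. CENPS and CENPP, further subunits, changed by −2.46 ± 0.23 and −2.12 ± 0.19, CENPE, the kinetochore motor, by −1.65 ± 0.13, and CENPF by −1.46 ± 0.16. The other CENPP probe set over the limit differed by 0.31 and was not called. Of 2 other CENPF probe sets over the limit 1 was called lower too, and 1 differed by −0.02 and was not called. CENPN changed by −1.58 ± 0.24 against e18, but its difference from e20 was −0.11 ± 0.24 and not called. The exception was CENPV, with 10.25, 10.30, 10.25 and 9.79 at d14, against 8.67, 8.71, 8.26 and 8.08 at e18. It rose by 1.72 ± 0.17 (adjusted p = 2.87e-09), and its difference from e20 was 0.08 ± 0.17, not called.

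Of the mitotic kinesins 9 of 11 fell and 1 rose between e18 and d14, where 40.5% of all tested genes were lower and 33.2% higher. KIF20A, a motor of cytokinesis, had 7.24, 7.41, 6.73 and 7.04 at d14, against 9.39, 9.39, 9.44 and 9.41 at e18, and fell by 2.30 ± 0.16, again with no overlap. The other KIF20A probe set over the limit differed by 0.33 and was not called. KIF11, which pushes spindle poles apart, changed by −0.91 ± 0.20, KIF4B by −1.60 ± 0.15, KIF20B by −1.45 ± 0.21 and KIF18A by −1.60 ± 0.19. Of 4 other KIF20B probe sets over the limit 3 were called lower too, and 1 differed by 0.08 and was not called. KIF14, another motor of cytokinesis, was at or below background at d14. It was at least 1.4-fold lower there than at e18 and at least 3.07-fold lower than at e20. KIF2A, a microtubule depolymerase that also acts outside mitosis, rose by 0.67 ± 0.09 and had a difference of 0.06 ± 0.09 from e20, not called. KIF18B stayed at 4.25 at d14 and 4.25 at e18, near the limit of testing.

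**Figure D3:**
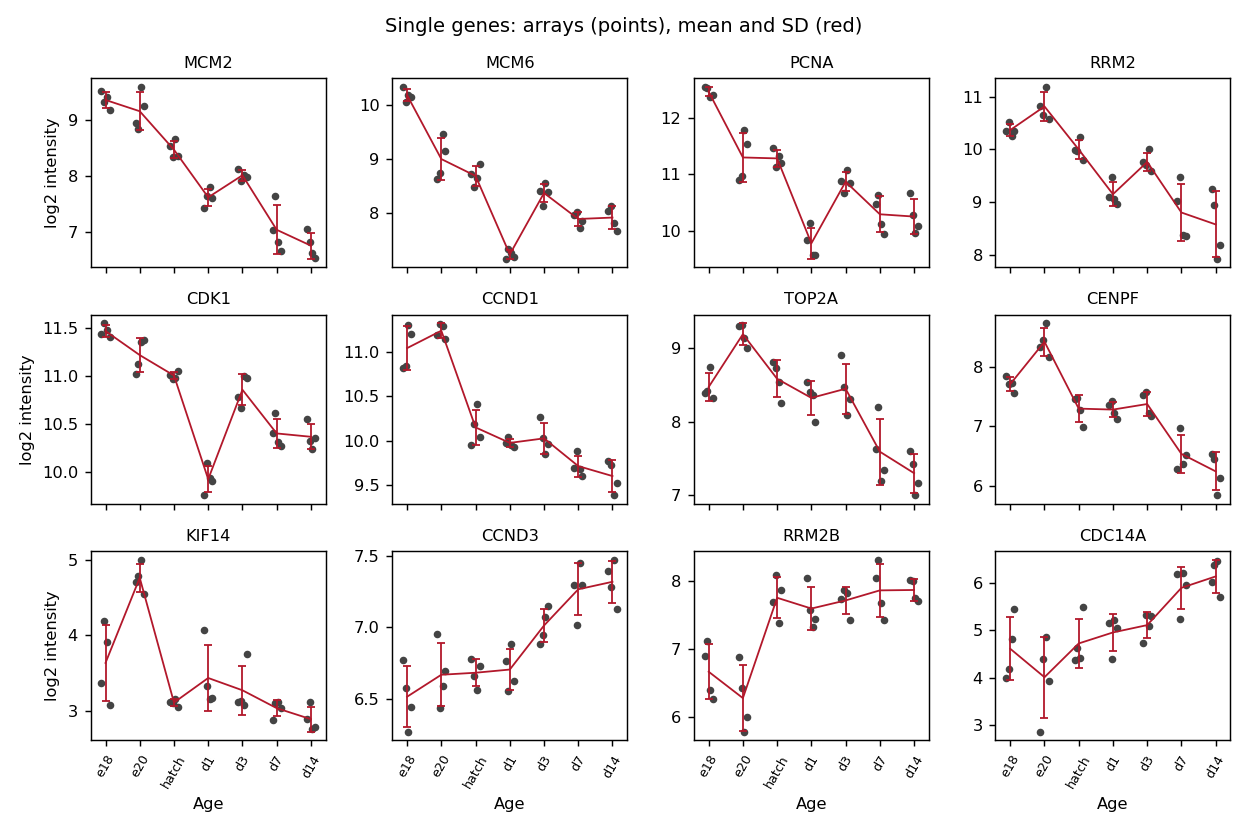
Log2 intensity of 12 genes by age, with the 4 arrays of an age as points and the mean and SD in red. MCM6, PCNA and CDK1 have a low at d1, CENPF and KIF14 a high at e20, and CCND3, RRM2B and CDC14A are higher at d14 than at e18.

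The prefix-only genes had no common direction. CDK14, a CDK of Wnt signalling, had 4.48, 4.46, 4.48 and 4.06 at d14, against 6.87, 7.28, 7.69 and 7.73 at e18. It fell by 3.02 ± 0.19, the largest fitted fall among the 134 genes. Its d14 values lay near the lower limit of testing, so weak signal may limit the size of this fall. KIF5C, a neuronal transport kinesin, and KIF25 were at or below background at d14 and at least 5.44-fold and 4.95-fold lower than at e18. Against e20 these bounds were 1.43-fold and 1.42-fold. The 8 neuron and glia markers tested all fell between e18 and d14 as well, where 40.5% of all tested genes were lower and 33.2% higher. Their mean was 4.96 ± 0.17 at d14 and 7.90 ± 0.08 at e18, and their part in KIF5C was not tested. KIFC2 changed by −1.37 ± 0.19, PLK2, a stress-induced relative of PLK1, by −1.85 ± 0.20, and CDK2AP1 by −1.82 ± 0.11. The d14 arrays of KIFC2 read 4.52 to 4.54, so weak signal may limit the size of its fall too. CDC37, a co-chaperone of HSP90, was at least 1.72-fold lower at d14 than at e18. CDC42EP3, CDC42EP1 and CDC42BPA, effectors of CDC42, changed by −1.47 ± 0.20, −1.12 ± 0.10 and −0.55 ± 0.17.

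Among the prefix-only genes that rose were CDC42SE2 and CDC42SE1, small CDC42 effectors, by 1.24 ± 0.18 and 1.06 ± 0.08, and the kinase CDC42BPB by 0.56 ± 0.08. KIF5B, the widely expressed conventional kinesin, rose by 0.81 ± 0.21, KIF13A by 0.55 ± 0.12 and KIF16B by 0.28 ± 0.11. CDK8, a kinase of the Mediator complex, rose by 0.66 ± 0.17, with a difference from e20 of −0.37 ± 0.17, not called. For several of these risers the probe set mattered. KIF5B and CDC42BPB each had 2 other probe sets over the limit, of which 1 was called higher too. The lower of the 2 differed by 0.10 for KIF5B and 0.27 for CDC42BPB. KIF1B rose by 0.65 ± 0.15, but another of its probe sets fell by 2.67. CDC2L1, an older name of a CDK11 gene, changed by 0.66 ± 0.08, and CDC73, a subunit of a transcription elongation complex, by 0.38 ± 0.12, and neither was called when all probe sets of the gene were averaged. A further probe set over the limit existed for 36 of the 108 genes called in this comparison. At least 1 further probe set was called the same way for 30 of these genes, some of which had others that were not called. For 1 gene, KIF1B, a further probe set was called the opposite way.

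Before hatch, between e18 and e20, the replication and mitosis genes divided. Of the 94 genes 29 fell and 15 rose, where 25% of all genes were lower and 29.2% higher at e20 (54.2% called). MCM6 had 8.63, 8.74, 9.47 and 9.15 at e20, below its e18 arrays, and fell by 1.18 ± 0.14. PCNA had 10.90, 10.98, 11.79 and 11.53 at e20 and fell by 1.16 ± 0.18. CDK6 changed by −1.74 ± 0.20, CENPN by −1.48 ± 0.24 and KIF18A by −1.29 ± 0.19. The genes that rose belonged to several roles, with 4 of 11 mitotic kinesins, 2 of 19 CENP genes, 2 of 15 licensing genes and 2 of 13 polymerase and clamp genes. KIF14 had 4.72, 4.79, 5.01 and 4.56 at e20, against 3.36, 4.19, 3.91 and 3.08 at e18, and rose by 1.13 ± 0.20 (adjusted p = 4.57e-05). All its e20 arrays were above all e18 arrays. CENPF had 8.33, 8.45, 8.72 and 8.17 at e20, against 7.84, 7.70, 7.72 and 7.56 at e18, a rise of 0.71 ± 0.16, and TOP2A rose by 0.72 ± 0.19, KIF11 by 0.54 ± 0.20 and BUB1B by 0.34 ± 0.13. E2F4 rose by 1.21 ± 0.12 and CENPV by 1.64 ± 0.17, while KIF5C, CDC14B and CDK2AP1 changed by −1.93 ± 0.17, −1.35 ± 0.18 and −1.06 ± 0.11. The pancreas markers dropped in the same interval, and their part was not tested.

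Between e20 and hatch most of the called genes fell, with 38 of the 94 genes lower and 4 higher, where 24.1% of all genes were lower and 19.2% higher (43.3% called). KIF14 was at least 2.93-fold lower at hatch than at e20. CENPF changed by −1.12 ± 0.16, CCND1 by −1.09 ± 0.12, MCM3 by −0.99 ± 0.23, E2F7 by −0.97 ± 0.26 and MCM2 by −0.69 ± 0.17. CDK14 changed by −1.45 ± 0.19. PCNA, with 11.46, 11.13, 11.33 and 11.20 at hatch, had a difference of −0.02 ± 0.18 and was not called, nor was MCM6 (−0.31 ± 0.14). RRM2B had 7.68, 8.08, 7.38 and 7.87 at hatch, against 6.89, 6.43, 5.78 and 6.00 at e20, and rose by 1.48 ± 0.23 with no overlap. CDC42SE2 rose by 1.06 ± 0.18 and CDC14B by 1.02 ± 0.18.

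At d1 the means dropped further. Of the 94 genes 46 were lower and 2 higher than at hatch, where 22.7% of all genes were lower and 12.5% higher (35.2% called). PCNA had 9.85, 10.14, 9.57 and 9.58 at d1 and fell by 1.50 ± 0.18 (adjusted p = 1.59e-06). MCM6 had 7.17, 7.34, 7.26 and 7.20 at d1, against 8.71, 8.48, 8.65 and 8.91 at hatch, and fell by 1.44 ± 0.14. CDK1 had 9.76, 10.10, 9.94 and 9.91 at d1, against 11.01, 10.97, 10.98 and 11.06 at hatch, a difference of −1.07 ± 0.10. All d1 arrays of these genes were below all hatch arrays. CDK6 changed by −1.23 ± 0.20, RRM1 by −1.10 ± 0.16, CENPS by −1.06 ± 0.23 and RRM2 by −0.85 ± 0.24. CCND1, CENPF and TOP2A had differences of −0.18 ± 0.12, −0.02 ± 0.16 and −0.26 ± 0.19 and were not called. KIF2A, KIF1B and KIF16B rose by 0.86 ± 0.09, 0.82 ± 0.15 and 0.73 ± 0.11.

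By d3 some of these genes were higher again. Of the 94 genes 20 rose and 2 fell between d1 and d3, where 15% of all genes were higher and 10.7% lower (25.7% called). This comparison shares the d1 arrays with the one before, so a low d1 value enters both. MCM6 had 8.40, 8.14, 8.56 and 8.39 at d3 and rose by 1.13 ± 0.14 (adjusted p = 2.68e-06), PCNA had 10.89, 10.66, 11.07 and 10.85 and rose by 1.09 ± 0.18, and CDK1 had 10.79, 10.66, 10.99 and 10.98 and rose by 0.93 ± 0.10. For each of the 3 genes all d3 arrays were above all d1 arrays. CENPS rose by 0.99 ± 0.23, E2F7 by 0.93 ± 0.26, CENPX by 0.77 ± 0.21 and E2F8 by 0.70 ± 0.20. MCM2, with 8.13, 7.90, 8.03 and 7.99 at d3 and 7.43, 7.63, 7.79 and 7.61 at d1, had a difference of 0.40 ± 0.17 and was not called. KIFC2, CDK14 and KIF16B changed by −0.95 ± 0.19, −0.60 ± 0.19 and −0.59 ± 0.11, and CDC42SE2 rose by 1.22 ± 0.18.

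From d3 to d7 levels fell again. Of the 94 genes 47 fell and 0 rose, where 8.38% of all genes were lower and 5.07% higher (13.5% called). E2F7 had 3.06, 4.22, 3.40 and 3.49 at d7, against 5.37, 5.38, 5.28 and 5.39 at d3, and fell by 1.81 ± 0.26 (adjusted p = 5.37e-05). Its value on d7 array 1 lay below the background of 3.36 there, so weak signal may limit the size of this fall. KIF20B changed by −1.23 ± 0.21, MCM5 by −1.08 ± 0.21, CENPK by −0.99 ± 0.17, MCM2 by −0.98 ± 0.17 and TOP2A by −0.86 ± 0.19. CDK19, a Mediator kinase, was the only one of the 134 genes that rose, by 0.46 ± 0.13. Leaving out single arrays moved the count of called genes, 50 of 134, to 33 without d3 array 1, 28 without d7 array 3 and 31 without d7 array 4.

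Between d7 and d14 0 of the 134 genes were called by limma, where 0.858% of all genes were, 0.453% lower and 0.405% higher. At an unadjusted p under 0.05 there were 10 of the 134, 4 of them among the 94, where 879 of all 8396 tested genes were. The smallest adjusted p of the 134 genes was 0.229. Of the 94 genes 70 had a difference below 0, with a median of −0.09, where the median of all tested genes was −0.009. The share of all tested genes below 0 was not counted. MCM3, whose d14 mean was at or below background, was called only without d7 array 3, and CDC73 (difference 0.34 ± 0.12) only without d14 array 1.

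**Figure D4:**
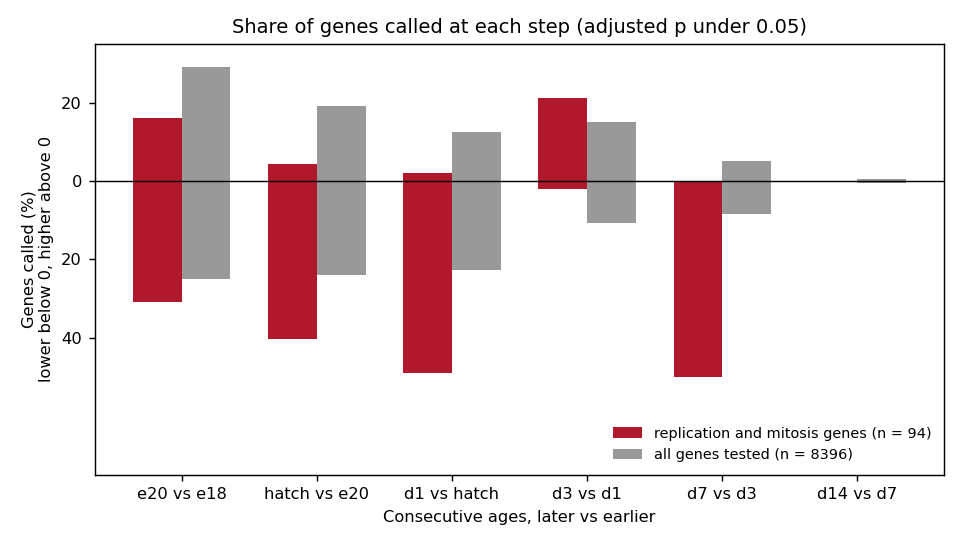
Share of the 94 replication and mitosis genes (red) and of all 8396 tested genes (grey) called at each step between consecutive ages, with higher genes above 0 and lower genes below it. The red bars reach 40.4% lower from e20 to hatch, 48.9% from hatch to d1 and 50% from d3 to d7, and 21.3% higher from d1 to d3.

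**Figure D5:**
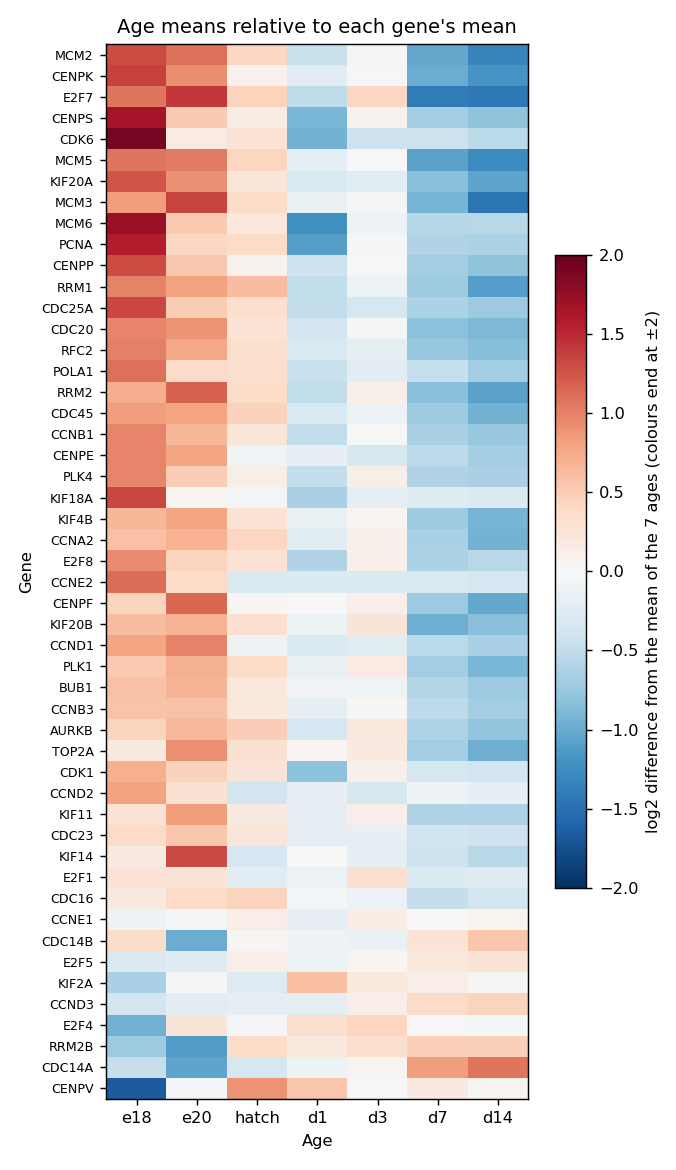
Age means of the 50 replication and mitosis genes selected by the naming rule, each relative to its own mean over the 7 ages, with ages as columns and genes ordered by their difference between d14 and e18. Most genes are red at e18 and e20 and blue at d7 and d14, while CCND3, RRM2B and CDC14A are below their own mean at e18 and e20 and above it at d7 and d14.

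Arrays of one age differed most at d7 and d14. The mean over the 94 genes was 6.68, 6.87, 6.47 and 6.53 in d7 arrays 1 to 4 and 6.68, 6.64, 6.44 and 6.46 in d14 arrays 1 to 4. At both ages arrays 1 and 2 were above arrays 3 and 4, and the d3 arrays lay closer together, at 7.08, 7.02, 7.06 and 7.06. For 3 of the 134 genes an order of this kind, in one direction or the other, held at every age. The share of all tested genes with such an order was not counted. KIF11 had both of arrays 1 and 2 above both of arrays 3 and 4 at all 7 ages, while CDC20 and MCM9 had them below at all 7. CDC20, for example, had 8.06, 8.14, 8.47 and 8.53 at d14, against 9.94, 9.97, 10.36 and 10.41 at e18. The array numbers only name the arrays and the labels do not say what separates them, so no term for this order was fitted and its part in the spread was not tested.

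Other genes of the same processes, which the symbol rule does not take in, mostly fell as well. Of 23 further replication genes 16 (69.6%) fell and 0 rose between e18 and d14. Over all tested genes 40.5% were lower and 33.2% higher (73.7% called). Against e20 20 of the 23 fell, where 40.4% of all genes were lower, 27.2% higher and 67.6% called. DUT, which keeps uracil out of DNA, changed by −2.50 ± 0.16, and CDT1, the licensing factor, by −1.65 ± 0.18. Of 34 further mitosis genes 30 fell and 0 rose, and 32 fell against e20. MKI67, the common proliferation marker, averaged 9.19 ± 0.42 at d14 and 10.41 ± 0.22 at e18 (difference −1.23 ± 0.16). At d3 against d1 10 of the 34 mitosis genes rose and 0 fell, where 15% of all genes were higher and 10.7% lower (25.7% called). BIRC5, a partner of AURKB, was among the 10 and rose by 1.07 ± 0.18. Medians between e18 and d14 were −1.11 for the further replication genes and −1.57 for the further mitosis genes.

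The regulators outside the symbol rule were split. Between e18 and d14 11 of the 25 tested rose and 13 fell, where 33.2% of all genes were higher and 40.5% lower (73.7% called). CDKN2B, an inhibitor of the D-type cyclin kinases, averaged 14.00 ± 0.06 at d14 and 6.94 ± 0.92 at e18, a rise of 7.07 ± 0.31 (adjusted p = 6.27e-16), of which 5.08 ± 0.31 lay between e18 and e20. CDKN1A, an inhibitor that p53 induces, rose by 2.96 ± 0.23 between d1 and d3, the interval in which PCNA and CDK1 rose too. CDKN2A, CDKN1B and the retinoblastoma gene RB1 rose by 3.18 ± 0.43, 0.87 ± 0.11 and 1.25 ± 0.17 between e18 and d14. Its relative RBL1 (difference −2.16 ± 0.14) fell, as did the E2F partner TFDP2 (−2.06 ± 0.19) and the mitotic gene activators FOXM1 (−1.44 ± 0.16) and MYBL2 (−1.07 ± 0.14).

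Markers of several cell types moved over the same ages, and their part in the changes above was not tested. Over all tested genes 40.5% were lower and 33.2% higher at d14 than at e18. From d1 to d3 15% of all tested genes were higher and 10.7% lower. The mean of 10 enterocyte markers was 13.54 ± 0.07 at d14 and 8.54 ± 0.37 at e18, and 10 rose. Of 9 crypt and progenitor markers 7 fell and 2 rose, OLFM4 and CD44. Their mean was 6.66 ± 0.19 at e18, 5.56 ± 0.11 at d1, 5.83 ± 0.06 at d3 and 5.73 ± 0.03 at d14. All 7 fibroblast and matrix markers fell, with means of 10.24 ± 0.22 at d14 and 12.61 ± 0.17 at e18. The mean of 5 T cell markers was 4.29 ± 0.14 at d1, 6.63 ± 0.44 at d3 and 8.99 ± 0.13 at d14, and 4 of them rose between d1 and d3. Globin and other erythroid markers, of which only 2 were tested, averaged 12.45 ± 0.21 at e18, 6.45 ± 0.83 at hatch and 10.06 ± 0.17 at d14.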

How the data were processed

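Per the labels, total RNA was column-purified and biotin-labelled. The deposited values are 1 linear intensity per probe set and array, made with GCRMA per the submitters' processing notes (version not given in the sources used here). Of 38535 probe sets, 153 controls were left out, and 27168 with a single symbol in the platform annotation were used. Log2 was taken, and limma 3.58.1 in R 4.3.3 fitted 1 mean per age to 28 arrays (lmFit, contrasts.fit and eBayes, 21 residual degrees of freedom). Tests were two-sided with Benjamini-Hochberg adjustment over 8396 genes and a threshold of 0.05. The fit recovered known changes in data simulated with independent noise for each gene. Those data hold no order shared between arrays, so this checks the code and not the calls made here. Background was the 95th percentile of the 541 probe sets beginning NC-, 2.97 to 3.54 per array; an age mean at or below it entered folds as that bound, written "at least". The number of arrays limits precision. Named genes were 28 fixed genes where measured, the 3 largest called rises and falls per role and per step, and genes that rose against their role, with others added, after their values were seen, to complete families. Members, roles and lists were chosen with earlier results of these data known. Alternatives covered filter, normalization, pseudocount, probe sets, variance model and single arrays. The RefSeq gene table held the gene IDs of 158 of the 159 genes, all under the same symbol. MCM4, MCM7, CCNB2 and AURKA were not analysed here.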

Additional observations from a re-analysis of the deposited data

Results flagged for a closer look

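Within an age of 4 arrays, single arrays of a named gene stood apart from the other 3 in 32 of 497 cases (by Dixon's test of the gap over the range), and chance alone gives about 1 in 20. At e18, CCNE1 read 3.97 on array 4, against 4.26 to 4.28 on the others, and KIF13A read 6.3 on array 2, against 6.66 to 6.73 on the others. At e20, CCNE1 read 4.23 on array 2, against 4.27 to 4.27 on the others, and CDC42EP1 read 6.83 on array 4, against 7.07 to 7.11 on the others. CDK6 read 5.51 on array 2, against 5.98 to 6.05 on the others, and CENPS read 9.9 on array 3, against 9.01 to 9.09 on the others. KIF18A read 5.04 on array 3, against 4.32 to 4.4 on the others, and KIF20B read 7.25 on array 3, against 6.58 to 6.66 on the others. MCM3 read 6.58 on array 2, against 5.6 to 5.73 on the others, and POLA1 read 5.72 on array 3, against 5.08 to 5.12 on the others. At hatch, CDC45 read 8.62 on array 3, against 8.26 to 8.31 on the others, and CENPP read 7.81 on array 4, against 7.38 to 7.44 on the others. KIF4B read 9.67 on array 1, against 9.49 to 9.52 on the others, and KIF5B read 7.31 on array 4, against 7.02 to 7.06 on the others. PLK1 read 9.75 on array 4, against 9.88 to 9.9 on the others. At d1, CCNE1 read 3.57 on array 2, against 4.27 to 4.28 on the others, and CDC42SE1 read 8.55 on array 2, against 8.73 to 8.77 on the others. CDK6 read 5.06 on array 2, against 4.66 to 4.68 on the others, and E2F5 read 6.54 on array 1, against 6.64 to 6.65 on the others. KIF1B read 8.63 on array 2, against 8.84 to 8.86 on the others. At d3, CDC42SE1 read 8.85 on array 3, against 8.96 to 8.98 on the others, and E2F7 read 5.28 on array 3, against 5.37 to 5.39 on the others. E2F8 read 8.14 on array 2, against 8.27 to 8.28 on the others, and KIF14 read 3.76 on array 4, against 3.07 to 3.13 on the others. RFC2 read 8.68 on array 4, against 8.53 to 8.55 on the others, and RRM1 read 7.06 on array 2, against 7.29 to 7.31 on the others. At d7, CDC42EP1 read 5.87 on array 3, against 6.01 to 6.03 on the others. At d14, CCNE1 read 4.61 on array 4, against 4.27 to 4.27 on the others, and CDC42SE2 read 8.44 on array 1, against 7.88 to 7.96 on the others. CDK14 read 4.06 on array 4, against 4.46 to 4.48 on the others, and CENPV read 9.79 on array 4, against 10.25 to 10.3 on the others. KIF18A read 3.8 on array 4, against 4.32 to 4.41 on the others. Values are log2 intensities, and the gaps were often small, as for CCNE1 at e20.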

How the results depend on the processing

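No paired analysis was possible because the labels number the arrays in one run and give no number that ages share. Counts of called genes in either direction were recomputed without a filter, with log2 over 5, quantile normalization, log2(intensity + 16), other probe sets, a mean trend, array weights, without each array, for the 94 genes alone, and, chosen after seeing the data, without e18. They stayed within 1.5 times the reported count in every setting except single arrays left out between d3 and d7, where the count ranged from 28 to 56 against 50, and between d7 and d14, where it ranged from 0 to 1. Counts in 1 direction moved more where they were small. With no filter 18 genes rose from hatch to d1 against 8, and with the most variable probe sets 2 did. For d1 to d3 falls the range was 2 to 13 against 8, where the 94 genes alone had 2. With the most variable probe set the rises from e18 to e20 numbered 17 against 27. Single genes turned sign with the probe set: KIF1B to −0.35 with averaged and −2.67 with the most variable probe sets against e18 and −0.73 against e20, CDC73 to −0.29 against e18, CCND2 to 0.31 and PLK2 to 0.51 against e20, and CDC2L1 to −0.15 against e20; the cause was not tested. Of 5157 recomputed differences of single genes against e18 and e20, 5117 kept direction and side of the threshold. Many of these differences could not change, because leaving out an array of another age, or using a mean trend, leaves them as they were. Only their adjusted p could then move, so the count says little about stability. Weak signal limits genes such as CCNE1, which read close to 4.27 on most arrays of several ages.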

Other observations

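Growth regulators outside the symbol rule also changed. MYCN, a driver of progenitor growth, averaged 6.26 ± 0.24 at d14 and 10.36 ± 0.14 at e18 (log2, SD, n = 4 arrays), a difference of −4.10 ± 0.17, which is larger than that of any of the 134 replication and mitosis symbols. It fell at each step to d3, with differences of −1.52 ± 0.17, −1.23 ± 0.17, −0.93 ± 0.17 and −0.48 ± 0.17. MYC changed by −0.50 ± 0.09. CCNG2, a cyclin linked to cell cycle arrest, rose by 1.31 ± 0.17 and its relative CCNG1 fell by 1.30. The antiproliferative genes BTG2, TOB1 and TOB2 rose by 0.55 ± 0.09, 1.04 ± 0.09 and 0.96 ± 0.13.

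A few genes were low at e20 and higher again at hatch. CDC14B had 6.73, 6.78, 6.83 and 6.62 at e18, 5.25, 5.34, 5.29 and 5.69 at e20 and 6.07, 6.32, 6.44 and 6.80 at hatch. CDC42SE2 had 6.95, 6.68, 6.71 and 6.87 at e18, 5.43, 5.91, 6.12 and 6.15 at e20 and 7.14, 7.01, 6.56 and 7.16 at hatch. Both comparisons share the e20 arrays. KIF5B rose by 1.00 ± 0.21 from e20 to hatch, fell by 0.96 to d1 and rose by 0.74 ± 0.21 to d3.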
